A study of Caenorhabditis elegans with 4 samples.

Results

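The cytochrome P450 genes of Caenorhabditis elegans were followed on 4 arrays that set RNA of glp-4 adults against a wild-type reference. Members were taken by symbol: every gene that the array annotation names cyp, a family number, a subfamily letter and a gene number, on probes with 1 gene only. This gave 67 genes on 72 probes, of 14958 named genes in all, in 13 families and 22 subfamilies. All 67 had a value on at least 3 arrays and entered the test, 65 of them on 4 arrays. The 2 genes measured on 3 arrays were cyp-25A3 and cyp-35A3. For 5 genes with several probes, the probes were averaged per array. On 3 further probes 2 P450 symbols share the spot, and these are given apart.

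On each array channel 2 was glp-4 adult mRNA (preps 1 to 4) and channel 1 a wild-type mixed reference. Loss of function of glp-4, a valyl-tRNA synthetase gene, in temperature-sensitive mutants leaves adults with very few germ cells. No source used here states the allele, the temperature, the age of the adults or the make-up of the reference. Nor do they say whether the preps were separate cultures, so that p-values measure the spread between 4 preps, which may be technical. Because the reference is the only wild-type RNA, the spread between wild-type samples is not in the test. Each channel held the same kind of RNA on every array, so a channel bias of a gene cannot be told apart from a difference. A value is a log2 ratio, likely glp-4 adults over reference. That direction rests on the array descriptions and the channel order alone, since dyes are unnamed, and all signs below turn if it is wrong. Ratios are relative to the other transcripts of the same array. In whole-worm RNA a change in the share of a tissue and a change of RNA per cell cannot be told apart. The glp-4 genotype is also confounded with any difference of stage between the adults and the mixed reference.

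P450 enzymes are heme proteins that insert oxygen into lipids, steroids and foreign compounds, with electrons passed on from a reductase or from cytochrome b5. In C. elegans many of these genes are active in the intestine, the main organ for fat storage and for handling foreign compounds. A few serve development: daf-9 makes the steroid hormone dafachronic acid, and cyp-31A2 and cyp-31A3 act redundantly in building the lipid layer of the eggshell. Genes of a subfamily are related copies, often side by side on the chromosome, so a spot may also bind RNA of a close relative. How far this happened was not tested.

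Most P450 genes with a call were higher in glp-4 adults than in the mixed reference. In limma with Benjamini-Hochberg adjustment over all 19981 features (adjusted p under 0.05), 34 of the 67 genes were higher, against a background of 17.0% of features, and 2 were lower, against a background of 20.9%. The other 31 did not pass. The share of higher calls among P450 genes was 50.7%, and the median log2 ratio was 0.61, beside 0.0037 for all features. At least 2-fold differences were called for 21 higher P450 genes (7.83% of all features) and for 1 lower gene (10.8% of all features). Of the 67 genes, 40 lay above 0 on every measured array, as did 26.7% of all features, and 6 lay below 0 on every array, as did 28.8%. The P450 median over preps 1 to 4 was 0.64, 0.59, 0.47 and 0.71, and lay above the median of all features on each array. Leaving out 1 prep left between 23 and 29 genes called higher.

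Pseudogenes, chemoreceptor genes and F-box genes are often weakly expressed, though signal was not measured here. Over 1843 tested features they had a median log2 ratio of 0.31. Of these, 19.4% were called higher and 5.91% lower, beside 17.0% and 20.9% of all features. Lower calls were thus scarce in this class too, as among the P450 genes (2.99%). The 95% interval of 24 of the 34 higher P450 genes lay wholly above the class median of 0.31, as did that of 11.2% of all features. The other 10 higher genes had intervals that reached down to it. Germline and intestinal transcripts moved on the same arrays: all 13 germline and oocyte markers were lower (median -3.31), 29 of 30 major sperm protein genes were lower (median -3.13) and 11 of 12 intestinal markers were higher (median 2.37). Muscle markers had 4 of 5 higher and neuron markers 4 of 5 lower. Of 5 epidermal markers 2 were higher, col-19 (3.74) and bli-1 (1.52), and 2 lower, dpy-7 (-1.62) and rol-6 (-1.33). The part of these tissues in the P450 ratios was not tested.

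**Figure D1:**
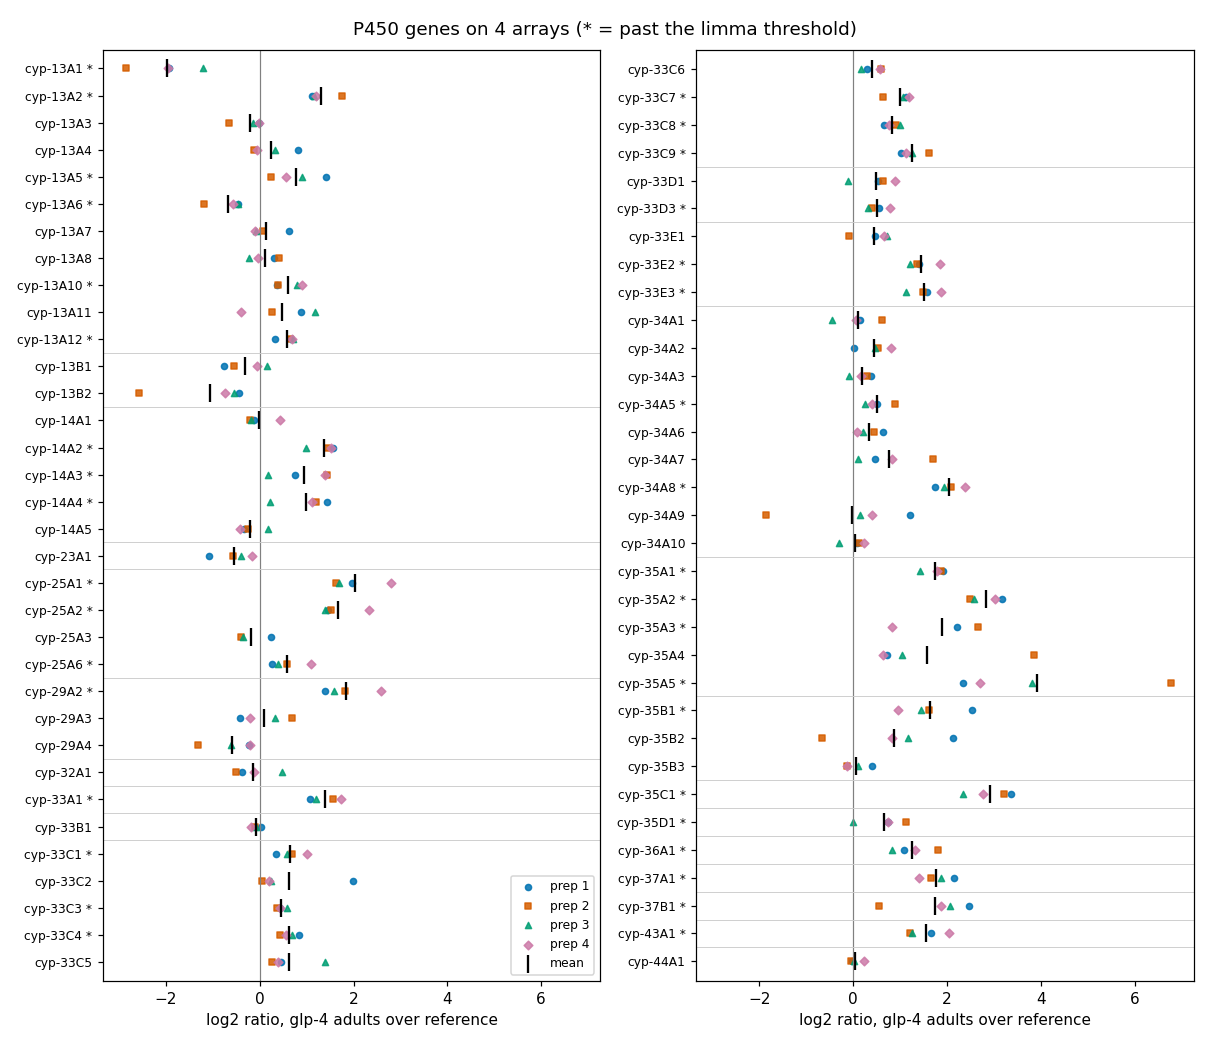
Log2 ratio (glp-4 adults over reference, horizontal axis) of each of the 67 P450 genes on the 4 arrays, in order of subfamily. Points are preps, the black bar is the mean and a star marks genes past the limma threshold; cyp-35A5 lies furthest right at a mean of 3.91 and cyp-13A1 furthest left at -1.99.

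The subfamilies differed in level and in how alike their genes were. The 9 subfamilies with at least 3 tested genes together held 52 of the 67. In order of their medians they were 35A (1.90, 5 genes), 33E (1.45, 3 genes), 25A (1.13, 4 genes), 14A (0.93, 5 genes), 35B (0.87, 3 genes), 33C (0.63, 9 genes), 34A (0.35, 9 genes), 13A (0.24, 11 genes) and 29A (0.09, 3 genes). The median of 35A ranged from 1.80 to 2.67 over the arrays and lay above the array medians of 14A, 33C, 34A, 13A and 29A without overlap. It overlapped with those of 33E, 25A and 35B. Array by array, the median of 35A was above that of 35B on all 4 arrays, and above those of 33E and 25A on 3. The medians of 33E and 25A also lay above those of 33C, 34A, 13A and 29A without overlap. In all, 15 of 36 subfamily pairs did not overlap. The median of 35B spanned -0.12 to 2.12 over the arrays, so its place in the order is not settled. Differences between subfamilies are given as descriptions and were not tested. Counts of calls per family and subfamily below stand beside 17.0% higher and 20.9% lower over all features.

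**Figure D2:**
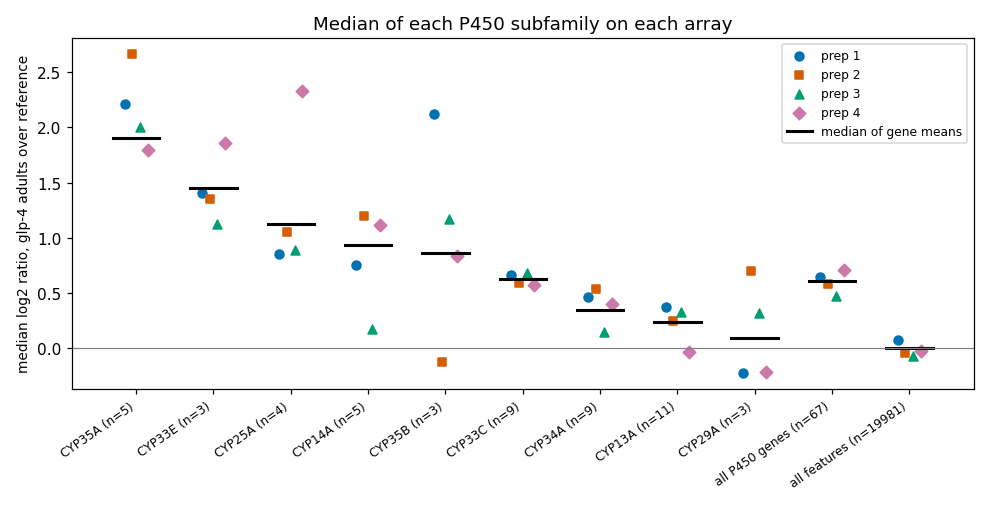
Median log2 ratio (vertical axis) of the 9 P450 subfamilies with at least 3 tested genes, of all 67 P450 genes and of all 19981 features, on each of the 4 arrays (points); the bar is the median of the gene means. Subfamily 35A lies between 1.80 and 2.67, and 33C has the narrowest span, 0.57 to 0.68.

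The 35 family had 7 of its 10 genes called higher, 0 lower and a family median of 1.70. Several of its genes are known in C. elegans as strongly induced by foreign compounds, and cyp-35A genes also bear on fat storage. The largest ratio of any P450 gene was that of cyp-35A5 (K07C6.5), with log2 values of 2.35, 6.77, 3.82 and 2.71 on preps 1 to 4. All 4 arrays were far above 0, and prep 2 stood well above the others. Its mean was 3.91 ± 2.01 (SD, n = 4 preps, 15.1-fold higher, adjusted p = 0.0042 in limma), and without prep 2 it was 2.96. The gene cyp-35A4 (C49G7.8) had 0.72, 3.86, 1.05 and 0.63. It was above 0 on every array and again highest on prep 2, and its mean of 1.57 ± 1.54 missed the threshold (adjusted p = 0.0516). Without prep 2 its mean was 0.80 at an adjusted p of 0.0215 in limma, and it also passed with centred arrays, with scaled arrays and with a value required on all 4 arrays.

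The other 35A genes were steadier, except for cyp-35A3. The gene cyp-35A2 (C03G6.15), whose loss is known to lower fat stores, had 3.18, 2.50, 2.58 and 3.03 on the 4 preps. These values were narrowly spread around a mean of 2.82 ± 0.33 (7.08-fold higher, adjusted p = 0.000118 in limma). Its neighbour cyp-35A1 (C03G6.14) had 1.92, 1.88, 1.43 and 1.80, also narrowly spread, and a mean of 1.76 ± 0.22 (3.38-fold, adjusted p = 0.000356 in limma). The gene cyp-35A3 (K09D9.2) had 2.21, 2.67 and 0.83 on preps 1, 2 and 4 and no value on prep 3. Prep 4 was the low one, and the mean was 1.90 ± 0.96 (n = 3, adjusted p = 0.00916 in limma).

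The remaining subfamilies of family 35, namely 35B, 35C and 35D, each had 1 gene called higher. The only 35C gene, cyp-35C1 (C06B3.3), known to respond to foreign compounds, had 3.37, 3.22, 2.35 and 2.77. All arrays were high, and the mean was 2.93 ± 0.46 (7.60-fold higher, adjusted p = 0.000153 in limma). In 35B, cyp-35B1 (K07C6.4), which lies downstream of the transcription factor DAF-16, had 2.53, 1.61, 1.44 and 0.96. It was highest on prep 1 and lowest on prep 4, with a mean of 1.64 ± 0.66 (adjusted p = 0.00296 in limma). The gene cyp-35B2 had 2.12, -0.67, 1.18 and 0.84, so prep 2 had the opposite sign of the others. Its mean of 0.87 ± 1.16 did not pass (adjusted p = 0.13 in limma), while without prep 2 it was 1.38 with an adjusted p of 0.0153. The gene cyp-35B3 stayed near 0 on all arrays, between -0.13 and 0.41, and did not pass (mean 0.06, 95% interval -0.32 to 0.44). The 35D gene cyp-35D1 (F14H3.10), known to metabolise the drug thiabendazole, had 0.74, 1.13, -0.0029 and 0.73. Prep 3 lay close to 0 and the other arrays above it, for a mean of 0.65 ± 0.47 (adjusted p = 0.045 in limma) that missed the threshold without prep 1, 2 or 4.

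The 25A genes held a high pair of neighbours, a modestly higher gene and a gene that did not pass. The neighbours cyp-25A1 (C36A4.1) and cyp-25A2 (C36A4.2) had means of 2.02 ± 0.54 and 1.68 ± 0.44 (4.06-fold and 3.19-fold higher, adjusted p of 0.000788 and 0.00104 in limma). On preps 1 to 4 cyp-25A1 had 1.96, 1.62, 1.70 and 2.80, and cyp-25A2 had 1.46, 1.52, 1.39 and 2.33. Both were highest on prep 4, by a clear gap. The third gene of the row, cyp-25A3 (C36A4.3), had 0.23, -0.40 and -0.36 on preps 1 to 3 and did not pass (mean -0.18 ± 0.35, n = 3). The gene cyp-25A6 was above 0 on every array with a mean of 0.58 ± 0.36 (adjusted p = 0.0426 in limma), a call that was lost without any 1 of the preps. Both probes shared by cyp-25A4 and cyp-25A5, the second of them listed as a pseudogene, had means of 0.64 ± 0.26 and 0.65 ± 0.24 (adjusted p of 0.0207 and 0.0176 in limma). Each of these calls was lost without prep 4, the first also without prep 2 and the second also without prep 3.

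Family 33 had 10 of 16 genes higher and 0 lower, mostly with modest ratios. The 9 genes of 33C lay close together, between 0.41 and 1.26, each above 0 on all 4 arrays, and 6 passed. The highest, cyp-33C9 (C50H11.15), had 1.03, 1.63, 1.25 and 1.12 (mean 1.26 ± 0.26, 2.39-fold, adjusted p = 0.00139 in limma). The lowest, cyp-33C6, had 0.30, 0.59, 0.17 and 0.57, a mean of 0.41 ± 0.21 that did not pass (adjusted p = 0.0767). Between them cyp-33C7 (1.01 ± 0.25) and cyp-33C8 (0.84 ± 0.15) were called with all preps and without any 1 of them. The calls of cyp-33C1 (0.65 ± 0.27), cyp-33C4 (0.63 ± 0.17) and cyp-33C3 (0.45 ± 0.09) were each lost in at least 3 of the 4 fits that left out a prep. The gene cyp-33C2 had 1.98 on prep 1 and at most 0.25 on the others, from 1 of its 2 probes: on prep 1 that probe had 3.44 and the other had 0.53. Its mean of 0.62 ± 0.91 did not pass, and neither did that of cyp-33C5 (0.63 ± 0.52).

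Within 33E, the neighbours cyp-33E2 and cyp-33E3 were near-equal. The gene cyp-33E2 (F42A9.5), which in C. elegans makes eicosanoids from fatty acids in the pharynx, had 1.40, 1.35, 1.20 and 1.86 (mean 1.45 ± 0.28, 2.74-fold, adjusted p = 0.000882 in limma). The gene cyp-33E3 (F42A9.4) had 1.58, 1.50, 1.12 and 1.87 (mean 1.52 ± 0.31, 2.86-fold, adjusted p = 0.000843 in limma). Their profiles over the arrays ran alike, highest on prep 4 and lowest on prep 3. The third gene, cyp-33E1, had 0.46, -0.08, 0.72 and 0.67 and did not pass (mean 0.44 ± 0.37). Its 2 probes gave similar values on preps 1 to 3, and 0.93 against 0.41 on prep 4.

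Of the remaining family 33 genes, cyp-33A1 (C12D5.7) was the highest. It had 1.06, 1.57, 1.21 and 1.73, all clearly above 0, with a mean of 1.39 ± 0.31 (2.62-fold, adjusted p = 0.00116 in limma). The 33D genes had means close to each other, cyp-33D3 passing at 0.51 ± 0.21 (adjusted p = 0.037 in limma) and cyp-33D1 not passing at 0.49 ± 0.43. On preps 1 to 4 cyp-33D3 had 0.56, 0.40, 0.31 and 0.78, and its call was lost without any 1 of the preps. The gene cyp-33B1 stayed between -0.19 and 0.02 on all arrays and did not pass (95% interval -0.42 to 0.25).

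In 14A, 3 of 5 genes were higher and 0 were lower. The gene cyp-14A2 (K09A11.3) had 1.55, 1.44, 0.99 and 1.51, a mean of 1.37 ± 0.26 (2.59-fold, adjusted p = 0.001 in limma). The genes cyp-14A4 (0.99 ± 0.54) and cyp-14A3 (0.93 ± 0.59) were above 0 on every array, with prep 3 the lowest for both, at 0.22 and 0.18. The call of cyp-14A3 was lost without prep 2 or prep 4. The lowest member, cyp-14A5, had -0.34, -0.25, 0.18 and -0.42 and did not pass (mean -0.21 ± 0.27). The gene cyp-14A1 lay beside cyp-14A2 in the genome and had -0.12, -0.20, -0.18 and 0.43, a mean of -0.02 ± 0.30.

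The 34A subfamily had 9 genes and 2 calls, both higher (22.2%, near the 17.0% of all features). The gene cyp-34A8 (B0213.14) stood apart, with 1.75, 2.09, 1.94 and 2.38 (mean 2.04 ± 0.27, 4.11-fold, adjusted p = 0.000252 in limma). Its arrays were all far above those of the next gene by mean, cyp-34A7 (0.78 ± 0.68), apart from a value of 1.70 for cyp-34A7 on prep 2. The other call, cyp-34A5 (0.51 ± 0.27, adjusted p = 0.0456), was lost without any 1 of the preps. The lowest mean was that of cyp-34A9 (B0213.15), which lies downstream of DAF-16 and had 1.20, -1.85, 0.15 and 0.41. Its arrays disagreed in sign, and the mean of -0.02 ± 1.30 (95% interval -1.07 to 1.03) leaves a wide range. The remaining 5 genes had means between 0.04 and 0.45, and 1 of them, cyp-34A3, is listed as a pseudogene.

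The 13A subfamily went both ways and held both genes called lower, 18.2% of its genes beside 20.9% of all features. The gene cyp-13A1 (T10B9.8) had -1.93, -2.86, -1.20 and -1.95, the lowest value among the 67 genes on every array. Its mean was -1.99 ± 0.68 (3.96-fold lower, adjusted p = 0.00145 in limma). The gene cyp-13A6 (T10B9.3) had -0.46, -1.20, -0.45 and -0.57, below 0 throughout and lowest on prep 2, with a mean of -0.67 ± 0.36 (adjusted p = 0.0258 in limma). Its call was lost without prep 2, 3 or 4.

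Higher calls in 13A numbered 4 of 11 genes. The largest was cyp-13A2 (T10B9.7), with 1.10, 1.76, 1.16 and 1.20 and a mean of 1.30 ± 0.30 (2.47-fold, adjusted p = 0.00143 in limma). Lower but still called were cyp-13A5 (0.78 ± 0.50), cyp-13A10 (0.61 ± 0.27) and cyp-13A12 (0.59 ± 0.18), the last of which makes eicosanoids that act in the behavioural response to reoxygenation. Each of the calls of cyp-13A5, cyp-13A10 and cyp-13A12 was lost in at least 2 of the 4 fits that left out a prep. The gene cyp-13A7, known to be induced by rifampicin, did not pass (0.13 ± 0.34), nor did cyp-13A3, cyp-13A4 and cyp-13A8, with means between -0.21 and 0.24. For cyp-13A11 the 2 probes disagreed: on preps 1 to 4 the first had 0.73, -0.53, 0.04 and -1.15 and the second had 1.02, 1.05, 2.31 and 0.36. Their average, 0.48 ± 0.69, did not pass.

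Both 13B genes had negative means that did not pass. The gene cyp-13B2 had -0.43, -2.56, -0.54 and -0.74, below 0 on every array, with a mean of -1.07 ± 1.00 (adjusted p = 0.0512 in limma). Prep 2 was far below the rest, and without it the mean was -0.57. The gene cyp-13B1 had a mean of -0.31 ± 0.43.

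In 29A, cyp-29A2 was high and the other genes were not. The gene cyp-29A2 (T19B10.1) had 1.39, 1.81, 1.59 and 2.59, a mean of 1.85 ± 0.53 (3.59-fold, adjusted p = 0.00106 in limma). The gene cyp-29A3, known in C. elegans for making eicosanoids, had a mean of 0.09 ± 0.51 with arrays on both sides of 0. The lowest, cyp-29A4, had -0.22, -1.32, -0.61 and -0.21 and did not pass (mean -0.59 ± 0.52, adjusted p = 0.0707 in limma).

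Of the 11 subfamilies with 1 gene on the arrays, 7 had a higher gene and 0 a lower one. Besides cyp-35C1, cyp-35D1 and cyp-33A1 these were cyp-37A1, cyp-37B1, cyp-43A1 and cyp-36A1. The gene cyp-37A1 (F01D5.9) had 2.16, 1.67, 1.87 and 1.40 (mean 1.78 ± 0.32, 3.42-fold, adjusted p = 0.000495 in limma). The gene cyp-37B1 (F28G4.1) had a similar mean of 1.74 ± 0.82 (3.33-fold, adjusted p = 0.00448 in limma) from less even values: 2.46, 0.56, 2.06 and 1.87, with prep 2 low. The gene cyp-43A1 (E03E2.1) had 1.66, 1.22, 1.26 and 2.04 (mean 1.55 ± 0.39, 2.92-fold, adjusted p = 0.00109 in limma). Every array of these genes lay above 0.

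The gene cyp-36A1 (C34B7.3) acts downstream of the prolyl hydroxylase EGL-9 and the hypoxia factor HIF-1. It had 1.08, 1.82, 0.84 and 1.31, with a mean of 1.26 ± 0.42 (2.40-fold, adjusted p = 0.00278 in limma). The remaining single genes did not pass. The mitochondrial-type P450 gene cyp-44A1 was among the flattest, between -0.04 and 0.22 on all arrays (95% interval of the mean -0.29 to 0.39). The gene cyp-23A1 was below 0 on every array (mean -0.56 ± 0.38, adjusted p = 0.0523 in limma) and cyp-32A1 had a mean of -0.14 ± 0.44.

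The spot shared by cyp-31A2 and cyp-31A3, outside the symbol rule, was the lowest P450 probe mean. It had -2.25, -2.22, -1.97 and -1.86, tightly grouped, with a mean of -2.07 ± 0.19 (4.21-fold lower, adjusted p = 0.000183 in limma). Other genes for the permeability barrier of the eggshell split: dgtr-1 (-2.61 ± 0.93) and perm-1 (-2.39 ± 0.55) were lower at adjusted p of 0.00131 and 0.000435 in limma. The fatty acid synthesis genes pod-2 (0.84 ± 0.64) and fasn-1 (0.69 ± 0.49), also needed for that barrier, were higher at adjusted p of 0.0362 and 0.0407 in limma. The pod-2 call was lost in 3 of the 4 fits without 1 prep, and the fasn-1 call under 4 alternative settings. The P450 reductase gene emb-8 did not pass.

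Neighbouring P450 genes did not always share a ratio. In the order of protein-coding genes, 36 of the 67 genes lay directly beside another P450 gene, in 10 runs. The row from cyp-13A2 to cyp-13A8 spanned -0.67 (cyp-13A6) to 1.30 (cyp-13A2), and held 2 higher and 1 lower call among 7 genes. In the row from cyp-34A5 to cyp-34A10, cyp-34A8 at 2.04 lay directly beside cyp-34A9 at -0.02. The row of cyp-35A5, cyp-35B1, cyp-35B2 and cyp-35B3 had means of 3.91, 1.64, 0.87 and 0.06 in that order, while the 5 genes from cyp-33C4 to cyp-33C7 stayed between 0.41 and 1.01.

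Over all pairs of P450 genes, the difference of the mean log2 ratios had a median of 0.45 for the 25 adjacent pairs within a subfamily. It was 0.50 for the 139 other pairs within a subfamily and 0.89 for the 2046 non-adjacent pairs from different subfamilies. These pairs share genes and arrays, and no test was made. Subfamily membership accounted for 58.1% of the variance of the 67 means, as a description; 11 of the 22 subfamilies consist of a single gene, which adds to that share.

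**Figure D3:**
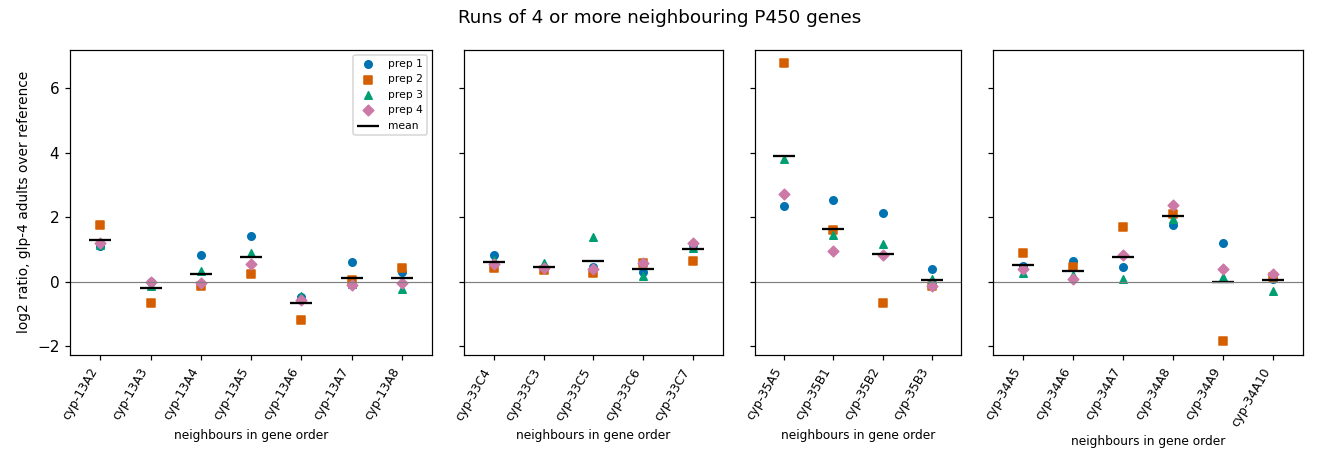
Log2 ratio (glp-4 adults over reference, vertical axis) of P450 genes in the 4 runs of at least 4 direct neighbours, in gene order; points are the 4 preps and bars the means. The cyp-33C run is flat between 0.41 and 1.01, while cyp-34A8 (2.04) and cyp-35A5 (3.91) stand above the other genes of their runs.

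Some genes departed from the rest on prep 2, and in both directions. On that array cyp-35A5, cyp-35A4 and cyp-34A7 had their highest values, and cyp-34A9, cyp-35B2, cyp-37B1, cyp-13B2 and cyp-13A1 their lowest. Of the 67 genes, 14 were highest on prep 2, beside 11 to 22 on each other array. Lowest on prep 2 were 23, beside 10 to 19. Prep 2 had the widest spread of all 67 P450 values, an SD of 1.41 beside 0.87 to 0.99 on the others, and also of all spots on the array, 1.21 beside 0.87 to 1.06. Over the P450 genes, the correlation between 2 arrays ran from 0.66 (preps 1 and 2) to 0.83 (preps 3 and 4). These are correlations across related genes and are descriptions only. The arrays of preps 3 and 4 share a date in their titles, so that pair may be less separate.

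Of 9 listed names of electron donors and their partners, 4 were matched on the arrays, and these did not move as a group. Among the names without a match were fdx-1, fdx-2 and fdxr-1. The reductase gene emb-8 (K10D2.6) had -0.48, -0.02, 0.41 and 0.11, around 0, and did not pass (mean 0.0048 ± 0.37, 95% interval -0.43 to 0.44). Of the cytochrome b5 genes, cytb-5.2 (W02D3.1) was lower at -0.80 ± 0.40 (adjusted p = 0.0164 in limma), and cytb-5.1 (C31E10.7) did not pass at 0.27 ± 0.27. The cytochrome b5 reductase gene hpo-19 (T05H4.5) had 0.94, 0.80, 1.13 and 1.57 and was higher (mean 1.11 ± 0.33, 2.16-fold, adjusted p = 0.00318 in limma). The call of cytb-5.2 was lost without prep 1, 2 or 3. The P450 gene daf-9 (T13C5.1), which carries out the last step of dafachronic acid synthesis, had 0.48, 0.97, 0.36 and 0.39, all above 0. Its mean of 0.55 ± 0.29 passed (adjusted p = 0.0387 in limma), but not without any 1 of the preps, where the adjusted p ranged from 0.0711 to 0.115.

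Of 15 measured genes that regulate P450 genes in C. elegans, 3 were higher, 3 were lower and 9 did not pass. Both shares were near those of all features, 17.0% higher and 20.9% lower. The nuclear receptor gene nhr-8, which acts in resistance to foreign compounds, had 1.57, 1.26, 2.72 and 1.95, all well above 0 (mean 1.88 ± 0.63, adjusted p = 0.00148 in limma). The receptor gene nhr-176, which controls cyp-35D1 and lies beside it in the genome, had 1.11, 1.23, 0.71 and 1.83 (mean 1.22 ± 0.46, adjusted p = 0.00387 in limma). Both nhr-176 and cyp-35D1 were lowest on prep 3, where 19 of the 67 P450 genes had their lowest value. The highest arrays of nhr-176 and cyp-35D1 differed. The intestinal GATA factor gene elt-2 was higher at 0.78 ± 0.14 (adjusted p = 0.00619 in limma).

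The lower regulators were egl-9, ahr-1 and nhr-49. The hypoxia pathway gene egl-9 had -1.04, -1.44, -0.83 and -1.10, evenly below 0 (mean -1.10 ± 0.25, adjusted p = 0.00228 in limma). The aryl hydrocarbon receptor gene ahr-1 was lower at -0.90 ± 0.46 (adjusted p = 0.0136 in limma, a call lost without prep 4), and nhr-49, a regulator of fatty acid metabolism, at -0.72 ± 0.22 (adjusted p = 0.0109 in limma). The genes that did not pass were daf-12, daf-16, pqm-1, skn-1, aha-1, hif-1, mdt-15, elt-7 and nhr-48. No relation between a regulator and a P450 gene was tested.

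**Figure D4:**
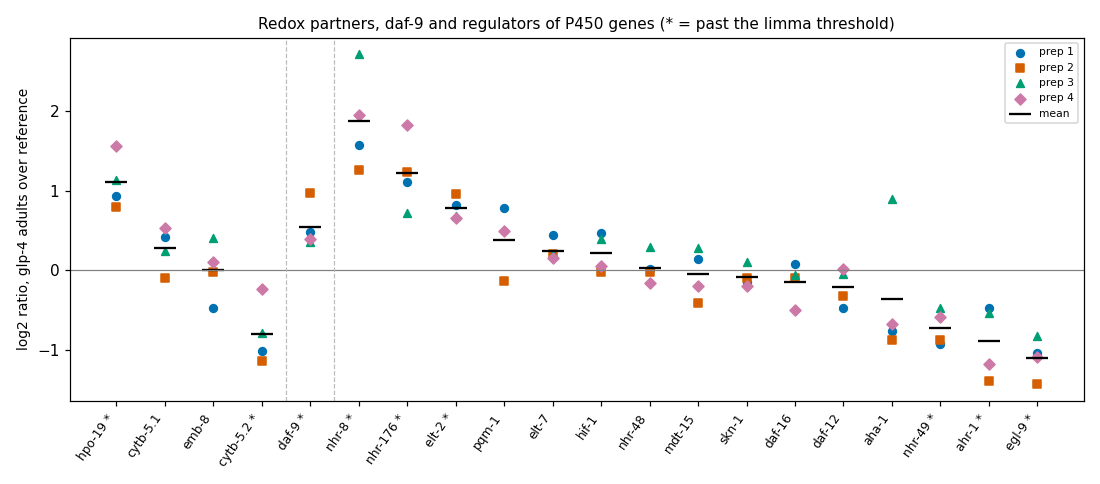
Log2 ratio (glp-4 adults over reference, vertical axis) of 4 redox partner genes, of daf-9 and of 15 regulators of P450 genes on the 4 arrays (points, preps; bars, means; dashed lines separate the groups; a star marks genes past the limma threshold). Highest is nhr-8 at 1.88 and lowest egl-9 at -1.10.

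Other enzyme families that handle foreign compounds give a scale for the P450 values. Among 62 UDP-glucuronosyltransferase genes, 45 were higher (72.6%, beside 17.0% of all features) and 1 lower (1.61%, beside 20.9%), with a median of 1.21. Among 31 glutathione transferase genes, 9 were higher (29.0%) and 4 lower (12.9%), with a median of 0.22. The P450 median of 0.61 lay between them. Whether the families differ was not tested.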

How the data were processed

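Each of the 4 arrays carried RNA of glp-4 adults and a wild-type mixed reference. As deposited by the authors, the file holds a log2 ratio per array for 21632 spots, and the log base follows from the values: on every array, 100% of those below -2 are the log2 of a whole multiple of 0.001. No source used here gives the scanner, background correction, normalization, dyes or genome build. Array medians ran from -0.07 to 0.08, and the values were used as deposited. Probes were named through the platform annotation, and a RefSeq table of WBcel235 gave locus names, gene types and gene order only.

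The mean of the 4 arrays was tested against 0 in limma 3.58.1 under R 4.3.3 (two-sided, intercept only, eBayes). Features needed values on at least 3 arrays (2 when a prep was left out), with Benjamini-Hochberg adjustment over all 19981 features and a threshold of 0.05. The fit was checked on simulated data with independent arrays of equal spread. These lacked the shared date and any channel bias, so the check does not cover them. Errors after ± are SDs over preps; intervals are 95% intervals of the same fit. Signal over background is unknown, so how far weak spots limit precision cannot be told. The small number of arrays limits it as well. Tables were joined with Python 3.11.15 and pandas 2.3.3. P450 genes and lists were chosen with earlier results of these data known. All P450 genes could be named; array values are given for the 12 highest and the lower genes among those past the threshold with 1 sign, for the highest and lowest member of each subfamily with at least 3 tested genes and for called genes of smaller subfamilies, and further ones were added after their values were seen. Of 9 listed redox partner names 4 were matched, and of 16 regulators 15.

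Alternatives were centring, centring with scaling, stricter and looser filters on missing values, 1 probe per gene, robust eBayes and leaving out each prep. The comparison with pseudogenes, chemoreceptor and F-box genes was added after the data were seen. Protein sequences and promoter motifs were not analysed here.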

Additional observations from a re-analysis of the deposited data

Results flagged for a closer look

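Of 74 sets of 4 array values, 8 had 1 array far from the other 3 by Dixon's test at its 95% critical value; chance alone flags about 1 in 20. On prep 2, cyp-35A4 had 3.86, with the other preps between 0.63 and 1.05, and cyp-13B2 had -2.56, with the others between -0.74 and -0.43. Prep 2 also stood apart for cyp-13A2, at 1.76 beside 1.10 to 1.20, and for cyp-13A6, at -1.20 beside -0.57 to -0.45. On prep 4, cyp-25A2 had 2.33 beside 1.39 to 1.52, which also set the median of subfamily 25A to 2.33 there, beside 0.86 to 1.05. The gene cyp-14A1 had 0.43 on prep 4 and -0.20 to -0.12 elsewhere. On prep 1, cyp-33C2 had 1.98 and elsewhere 0.04 to 0.25, from 1 of its 2 probes. The cause of these departures was not tested.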

How the results depend on the processing

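Of the 34 P450 genes called higher, 23 kept call and direction under every alternative that tested them (cyp-35A3 drops out where all 4 arrays are required), and 11 lost the call in at least 1; of the 2 lower genes, cyp-13A1 kept it. Every loss came from leaving out a prep, with 7 calls lost without prep 1, 9 without prep 2, 10 without prep 3 and 12 without prep 4. The higher count ran from 23 to 29 without 1 prep and from 34 to 36 under the other planned settings. The lower count was 4 with a value required on all 4 arrays, when cyp-13B2 and cyp-23A1 passed, 3 with centred or scaled arrays, when cyp-13B2 passed, and 1 to 2 without 1 prep. The gene cyp-35A4 was called higher under the same 3 settings and without prep 2. Higher calls were also gained by cyp-34A7 with scaled arrays and without prep 3, by cyp-33E1 and cyp-35B2 without prep 2, and by cyp-33D1 without prep 3. Over all features, 2073 to 2789 were higher without 1 prep, the lowest without prep 4.

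Subfamily medians without 1 prep ran from 0.0498 to 0.37 for 13A, from 0.68 to 0.75 for 33C, from 1.71 to 2.44 for 35A and from -0.11 to 0.27 for 29A, whose sign turned without prep 2. With scaled arrays 33C had 0.73, and with a value on all 4 arrays 35A had 2.29. Signs turned only for genes that did not pass. Without 1 prep the log2 ratios ran from -0.0365 to 0.205 for cyp-13A7, -0.17 to 0.0442 for cyp-14A1, -0.11 to 0.27 for cyp-29A3, -0.0759 to 0.28 for cyp-34A1, -0.43 to 0.59 for cyp-34A9, -0.0275 to 0.15 for cyp-34A10, -0.0534 to 0.13 for cyp-35B3, -0.0118 to 0.076 for cyp-44A1 and -0.13 to 0.17 for emb-8. With 1 probe per gene cyp-13A11 had -0.23, with centred arrays cyp-14A1 had 0.0003, and with scaled arrays cyp-34A9 had 0.16. The cause was not tested. Arrays with 1 title date as a random block could not be fitted, since 3 blocks among 4 arrays give no correlation; preps 3 and 4 alone gave means from 1.20 to 3.26 for the 12 highest genes called, cyp-35A3 aside, which lacks prep 3. No paired analysis was possible because the arrays form 1 group.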
